A study of Mus musculus with 12 samples.

Results

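The core genes of the circadian clock were read in mouse liver after adenoviruses that raise or lower ANGPTL8. They were the 10 genes Arntl, Npas2, Per1, Per2, Per3, Cry1, Ciart, Nr1d1, Nr1d2 and Dbp. They were found by symbol among the 54532 genes of a table of raw read counts, and each symbol matched 1 row. ANGPTL8 is a secreted protein of liver and adipose tissue that takes part in inhibiting lipoprotein lipase. All mice were wild type and, per the series title, kept on chow, and every adenovirus treatment lasted 9 days. The control virus of the overexpression arm was Ad_GFP, named for green fluorescent protein, and ANG8 was the virus that overexpresses ANGPTL8. The knockdown arm compared shANG8, a virus that knocks ANGPTL8 down, with shCtrl, its control hairpin virus. Each of the 4 groups held 3 libraries. The labels do not say that these came from separate mice, so p-values measure the spread between libraries, which may be technical. The sources used here do not give strain, sex, age, virus dose or the clock hour of tissue collection. A difference in collection hour between groups and an effect of a virus therefore cannot be told apart in any comparison below.

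Libraries held 12537083 to 15144312 counts, and 14686 genes passed the filter on low counts and were tested. The 12 hepatocyte markers were all detected in every group, with a summed level of 24135 to 83634 CPM per library. CPM here is the usual count of a gene's reads relative to library size, with TMM scaling (trimmed mean of M-values). Angptl8, the targeted gene, stood at 80.4 to 96.8 CPM in Ad_GFP and 165 to 314 CPM in ANG8. Its range was 167 to 391 CPM in shCtrl and 79.2 to 144 CPM in shANG8. It rose under overexpression (log2 fold change 1.28, SE 0.33, edgeR adjusted p = 0.0201) and did not pass under knockdown (-1.29, SE 0.33, adjusted p = 0.235). Mitochondrial genes took 39.0%, 43.8% and 22.5% of the counts in the ANG8 libraries and 19.3% to 34.9% in the other libraries.

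The clock is a transcriptional loop that runs in most cells. The activators BMAL1 (encoded by Arntl) and CLOCK or its relative NPAS2 bind E-box sequences and switch on the Period and Cryptochrome genes, whose proteins return to repress the activators. The same activators switch on the REV-ERB nuclear receptors (Nr1d1 and Nr1d2), which repress Arntl and Npas2 through ROR elements. They also switch on Dbp, a PAR-bZIP factor that acts on D-box sequences and passes the rhythm on to liver metabolism. Because of this wiring Arntl and Npas2 peak in mouse liver at the opposite part of the day to Nr1d1, Dbp and Per3, while Per1, Per2 and Cry1 follow later.

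RefSeq promoter windows of build GRCm38.p6 were searched on both strands for the letters of 4 elements of this wiring. The windows run from 250 bases before to 50 bases after an annotated start, and 9 of the 10 genes had 11 windows between them. Per2 had no entry. The elements were the E-box CACGTG, the E-prime-box CACGTT, the D-box TTATGTAA and the ROR element written as TAGGTCA or TGGGTCA. No 2 hits overlapped. The E-box lies in 7.15% of all 32851 windows, the E-prime-box in 4.68%, the D-box in 0.938% and the ROR element in 6.45%. Of the 11 windows of the clock genes, 3 held an E-box, 2 an E-prime-box, 1 a D-box and 1 a ROR element. The windows that hold a hit are printed from base -250 to base -1 of the start, 5′ to 3′ on the gene's strand, with the elements in capitals. A hit on the other strand reads as its reverse complement (AACGTG for the E-prime-box). Ciart (minus strand, chr3:95882229-95882478) holds 3 E-boxes, Per1 (plus strand, chr11:69098699-69098948) holds 1, and Cry1 (minus strand, chr10:85185055-85185304) holds 1 E-box and 1 E-prime-box. Nr1d1 (minus strand, chr11:98775378-98775627) holds 1 E-prime-box, and Per3 (minus strand, chr4:151044666-151044915) holds 2 D-boxes. For Arntl a stretch of 25 bases just past the start is shown (plus strand, chr7:113207532-113207556), because its ROR element begins at base 31 from that start.
Ciart: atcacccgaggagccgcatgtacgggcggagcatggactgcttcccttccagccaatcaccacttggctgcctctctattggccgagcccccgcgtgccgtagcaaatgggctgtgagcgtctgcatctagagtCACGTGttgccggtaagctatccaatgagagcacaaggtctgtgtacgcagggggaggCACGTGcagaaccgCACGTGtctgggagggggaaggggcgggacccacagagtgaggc
Per1: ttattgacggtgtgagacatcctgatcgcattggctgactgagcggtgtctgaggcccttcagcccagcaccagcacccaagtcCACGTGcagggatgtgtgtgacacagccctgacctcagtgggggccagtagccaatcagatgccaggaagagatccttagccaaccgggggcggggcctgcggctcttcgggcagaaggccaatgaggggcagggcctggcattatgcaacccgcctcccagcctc
Cry1: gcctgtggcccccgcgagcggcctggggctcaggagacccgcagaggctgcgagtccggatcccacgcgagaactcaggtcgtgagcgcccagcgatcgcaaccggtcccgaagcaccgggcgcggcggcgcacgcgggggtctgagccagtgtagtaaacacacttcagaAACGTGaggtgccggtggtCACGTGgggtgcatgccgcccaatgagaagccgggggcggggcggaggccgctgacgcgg
Nr1d1: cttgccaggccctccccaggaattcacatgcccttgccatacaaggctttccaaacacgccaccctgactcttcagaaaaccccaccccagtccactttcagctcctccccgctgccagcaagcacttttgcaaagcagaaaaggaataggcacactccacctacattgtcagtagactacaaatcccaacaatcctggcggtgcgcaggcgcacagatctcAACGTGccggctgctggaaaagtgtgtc
Per3: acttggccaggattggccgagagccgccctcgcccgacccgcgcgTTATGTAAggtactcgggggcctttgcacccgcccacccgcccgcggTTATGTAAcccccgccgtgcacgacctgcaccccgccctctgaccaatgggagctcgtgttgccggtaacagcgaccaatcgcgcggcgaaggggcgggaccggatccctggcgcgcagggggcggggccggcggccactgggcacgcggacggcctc
Arntl: ggcagaaagTAGGTCAgggacggag
The 3 E-boxes of Ciart begin at bases -116, -58 and -44, and the 2 D-boxes of Per3 at -205 and -158. A match describes the letters in the window and no more. The windows of Npas2, Nr1d2 and Dbp and a second window each of Per1 and Arntl held none of these letters.

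Per length, the 10 transcripts spanned a wide range of levels. Dbp was highest, at a mean of 37.6 CPM per kilobase over the 12 libraries (range 18.5 to 58.3). It was followed by Nr1d1 at 15.1 (6.33 to 29.5), Nr1d2 at 13.3 (9.40 to 16.9) and Ciart at 12.4 (4.29 to 24.5). Per1 stood at 8.82 (3.54 to 18.0), Per2 at 8.38 (4.86 to 14.9), Per3 at 3.78 (2.06 to 6.80) and Cry1 at 1.82 (0.900 to 2.63). The activators were lowest, with Arntl at 0.256 (0.0841 to 0.443) and Npas2 at 0.0710 (0.0127 to 0.151). Neighbours in this order had overlapping ranges except Cry1 and Arntl.

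**Figure D1:**
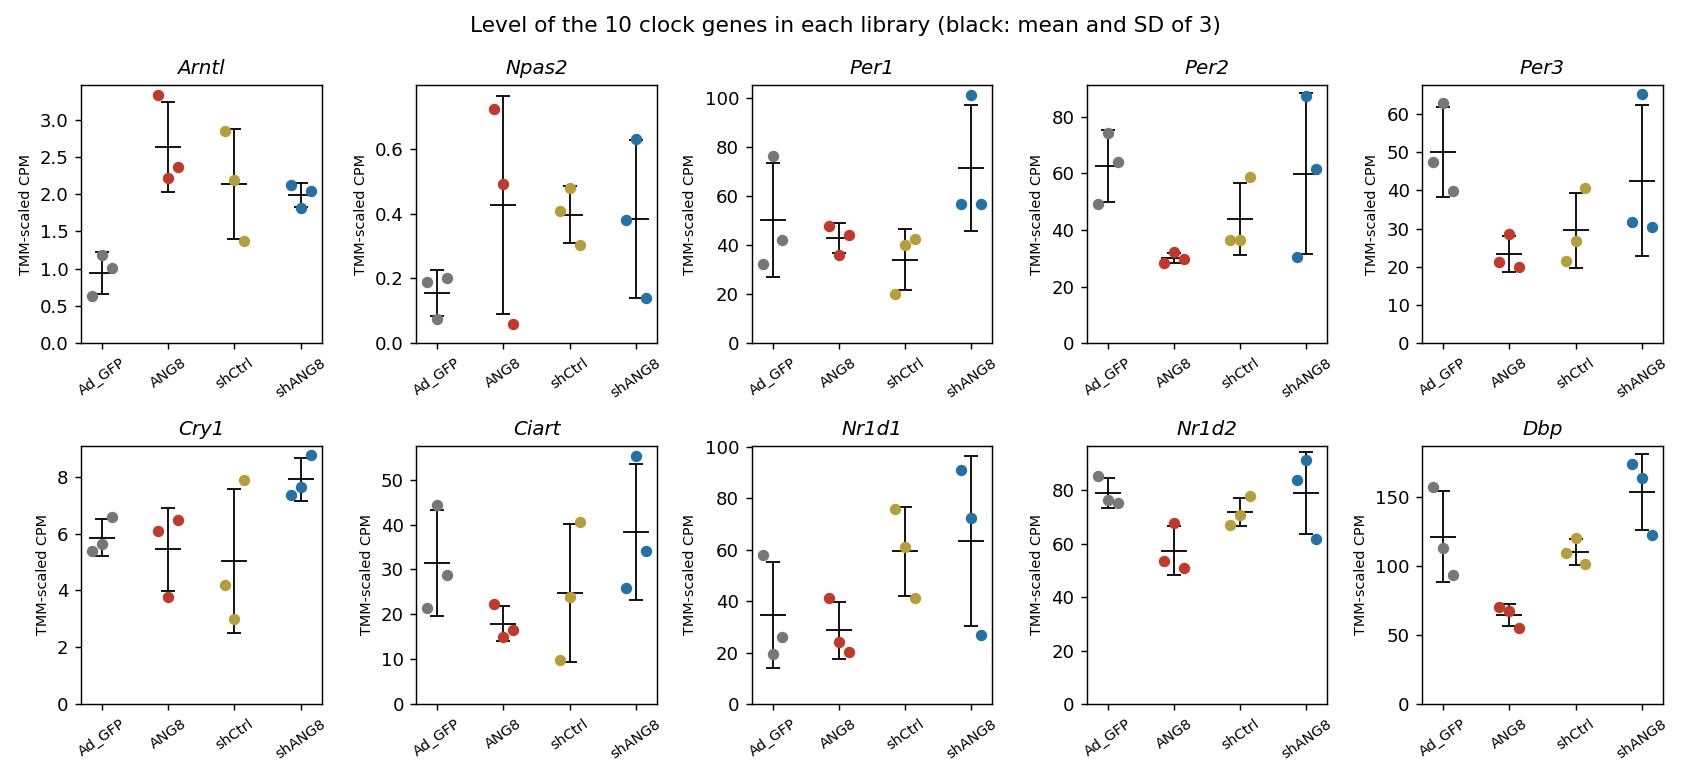
Level of each of the 10 clock genes in TMM-scaled CPM (vertical axis, from 0) in the 4 groups, with 1 point per library and the mean and SD of 3 libraries in black. The ANG8 libraries lie below all Ad_GFP libraries for Per2, Per3, Nr1d2 and Dbp and above all of them for Arntl.

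The overexpression comparison asked which of these transcripts differ between ANG8 and Ad_GFP livers. The activator Arntl rose, and the repressors Per2 and Per3 and the output factor Dbp fell. Of the 10 genes, 9 were tested: 1 rose, 3 fell and 5 did not pass. Over all 14686 tested genes, 13.5% were called in this comparison (7.08% higher and 6.39% lower). The median log2 fold change of the 9 genes was -0.46, against -0.00022 for all tested genes, and 8 of the 9 were below 0.

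Among the activators, Arntl (ENSMUSG00000055116, protein-coding, GRCm38 chromosome 7, 113207465 to 113314126, plus strand) had few reads. Its counts were 10, 16 and 15 in Ad_GFP and 46, 27 and 39 in ANG8, or 0.633, 1.18 and 1.01 CPM against 3.33, 2.21 and 2.37 CPM. Every ANG8 library thus lay above every Ad_GFP library. The fold was 2.80 (log2 fold change 1.48, SE 0.43, n = 3 and 3, edgeR adjusted p = 0.0311). This call rests on few reads and was lost without Ad_GFP replicate 1 (adjusted p = 0.125), 2 (0.0524) or 3 (0.0645) and without ANG8 replicate 1 (0.127) or 3 (0.0543). It also missed the threshold without the filter on low counts (0.0563) and with a covariate for the mitochondrial share (0.0693). Npas2 (ENSMUSG00000026077, chromosome 1, 39193731 to 39363236, plus strand) was too low to be tested. It had 3, 1 and 3 counts in Ad_GFP and 10, 6 and 1 in ANG8, and 2 to 8 in the other libraries. The ANG8 libraries overlapped with the controls for Npas2, so no direction can be read at this depth.

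The Period genes encode the PAS-domain proteins that form repressor complexes with the cryptochromes. Per2 (ENSMUSG00000055866, chromosome 1, 91415982 to 91459324, minus strand) stood at 49.2, 74.4 and 64.1 CPM in Ad_GFP and at 28.5, 32.0 and 29.7 CPM in ANG8. The groups did not overlap, and the ANG8 libraries lay within a narrow range. Per2 was 2.08-fold lower (log2 fold change -1.06, SE 0.31, adjusted p = 0.0352). Per3 (ENSMUSG00000028957, chromosome 4, 151003652 to 151044665, minus strand) stood at 47.6, 62.8 and 39.7 CPM in Ad_GFP and at 21.4, 28.7 and 19.8 CPM in ANG8, again without overlap. It was 2.15-fold lower (-1.10, SE 0.31, adjusted p = 0.0305). Leaving out 1 library ended both calls in several cases. Per2 was lost without Ad_GFP replicate 2 (adjusted p = 0.126) or 3 (0.0760) and without ANG8 replicate 1 (0.113), 2 (0.0811) or 3 (0.0947), and with a covariate for the mitochondrial share (0.0547). Per3 was lost without Ad_GFP replicate 1 (0.0719) or 2 (0.116) and without ANG8 replicate 1 (0.108) or 3 (0.0990).

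Per1, the member of the family that responds most directly to acute signals such as glucocorticoids (ENSMUSG00000020893, chromosome 11, 69095217 to 69109960, plus strand), did not pass. Its levels of 32.1, 76.3 and 42.2 CPM in Ad_GFP spanned those of 47.9, 36.1 and 44.2 CPM in ANG8 (log2 fold change -0.23, SE 0.35, adjusted p = 0.725). Without Ad_GFP replicate 2 its fold change was above 0 (0.20). Cry1, a cryptochrome repressor (ENSMUSG00000020038, chromosome 10, 85131700 to 85185064, minus strand), stood at 5.38 to 6.59 CPM in Ad_GFP and 3.77 to 6.49 CPM in ANG8 (-0.10, SE 0.32, adjusted p = 0.877). Ciart, also called CHRONO, a repressor that binds BMAL1 (ENSMUSG00000038550, chromosome 3, 95878503 to 95882251, minus strand), stood at 21.4, 44.3 and 28.6 CPM in Ad_GFP and 22.4, 14.9 and 16.5 CPM in ANG8. One ANG8 library lay above the lowest control, and the difference did not pass (-0.81, SE 0.48, adjusted p = 0.311).

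The REV-ERB genes did not pass, but their values were unlike each other. Nr1d2, which encodes REV-ERB-beta (ENSMUSG00000021775, chromosome 14, 18204054 to 18239127, minus strand), stood at 85.4, 76.3 and 75.3 CPM in Ad_GFP and at 53.7, 67.9 and 50.8 CPM in ANG8. The libraries did not overlap, and the difference of -0.46 (SE 0.17) missed the threshold (adjusted p = 0.0893). Nr1d1, which encodes REV-ERB-alpha (ENSMUSG00000020889, chromosome 11, 98767932 to 98775333, minus strand), overlapped widely, at 58.1, 19.5 and 26.0 CPM in Ad_GFP and 41.3, 24.3 and 20.4 CPM in ANG8 (-0.27, SE 0.53, adjusted p = 0.791). Without Ad_GFP replicate 1 its difference was above 0 (0.33). Exons of Nr1d1 share 263 bases (8.55% of its exon bases) with Thra on the opposite strand. The strand setting of the counting is not given, so reads there cannot be told apart. Thra held 11.9 to 18.3 CPM and did not pass (0.24, SE 0.19, adjusted p = 0.462).

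Dbp (ENSMUSG00000059824, chromosome 7, 45705088 to 45710203, plus strand) was the most deeply read of the 4 called genes. It stood at 158, 113 and 93.6 CPM in Ad_GFP and at 70.5, 67.4 and 55.4 CPM in ANG8. The groups did not overlap, and Dbp was 1.89-fold lower (log2 fold change -0.92, SE 0.20, adjusted p = 0.00662). It was called under all 14 alternatives, with adjusted p-values of 0.000158 to 0.0435. Dbp exons share 539 bases (18.0%) with Sphk2 on the opposite strand. Sphk2 held 25.7 to 48.7 CPM and did not pass (-0.17, SE 0.20, adjusted p = 0.628).

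Of the tested clock genes, 1 had all ANG8 libraries above and 4 had all of them below the Ad_GFP libraries (Nr1d2 with Per2, Per3 and Dbp). Among all tested genes these shares were 17.9% and 16.2%. Markers of cell types moved in the same comparison. Of 12 hepatocyte markers 10 fell, with summed levels of 44973 to 65597 CPM in Ad_GFP and 24135 to 50485 CPM in ANG8. Of 10 macrophage and Kupffer cell markers 8 rose (388 to 524 CPM against 944 to 1203 CPM in sum), and of 9 T and NK cell markers 5 rose and 1 fell (43.5 to 59.2 against 109 to 126 CPM). Of 6 markers of proliferating cells 3 rose (49.3 to 63.1 against 129 to 182 CPM). EdgeR called 0 tested markers of B, endothelial, stellate, bile duct and neutrophil cells, with 1 endothelial and 2 bile duct markers at an unadjusted p under 0.05 and 1 endothelial marker called by DESeq2 and by voom. No marker of the hepatocyte, macrophage, T and NK or proliferation lists was at 0 throughout a group. In bulk liver, fewer cells of a type and less RNA per cell cannot be told apart, and the part of these cell types in the clock result was not tested. With a covariate for the mitochondrial share, Dbp and Per3 were still called and Arntl and Per2 were not.

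**Figure D2:**
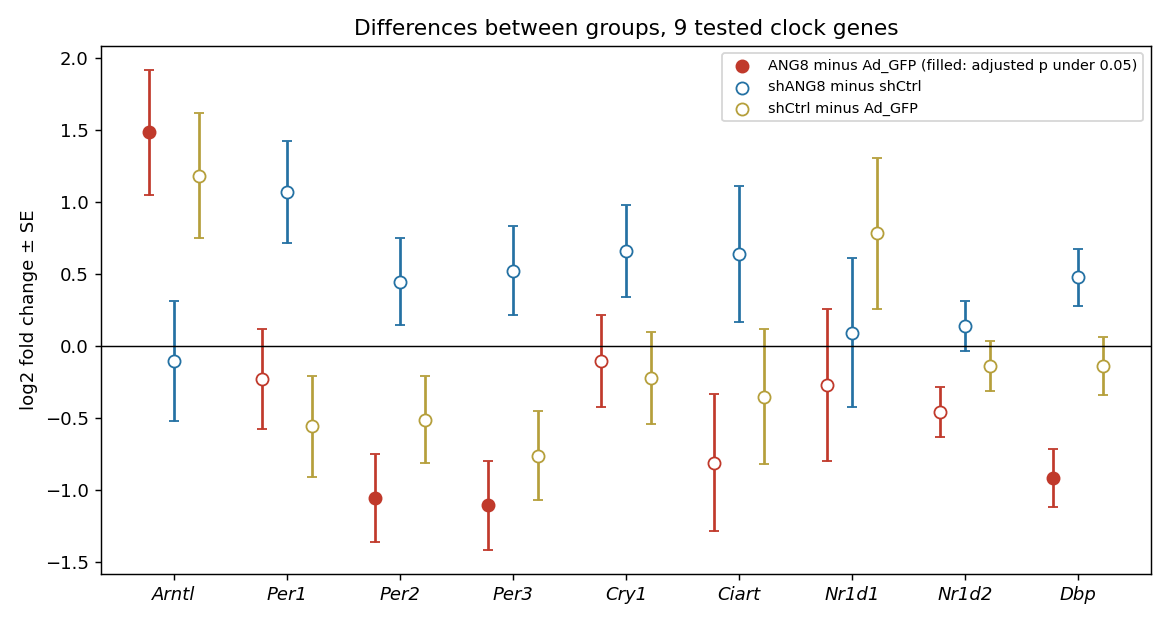
Log2 fold change with SE (vertical axis) of the 9 tested clock genes in 3 comparisons, from the fit of all 12 libraries. Filled points passed an adjusted p of 0.05: Arntl (1.48), Per2 (-1.06), Per3 (-1.10) and Dbp (-0.92) in ANG8 minus Ad_GFP.

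The knockdown comparison asked the same of shANG8 and shCtrl. EdgeR called 0 of the 9 tested clock genes, against 0.191% of all tested genes (0.0613% higher and 0.129% lower). DESeq2 and voom also called 0, and 2 of the 9 (Per1 and Dbp) had an unadjusted p under 0.05, as did 7.93% of all tested genes. The log2 fold change was above 0 for 8 of the 9 genes, with a median of 0.48 against 0.0079 for all tested genes. Knockdown and overexpression share no libraries, but their spread was estimated in 1 fit.

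In that comparison Per1 had the largest difference, at 20.0, 39.9 and 42.4 CPM in shCtrl and 56.8, 101 and 56.6 CPM in shANG8. The libraries did not overlap, but the difference of 1.07 (SE 0.35) did not pass (adjusted p = 0.467). It passed only without the filter on low counts (adjusted p = 0.000493), and its highest adjusted p over the alternatives was 0.811. Dbp stood at 109, 120 and 101 CPM in shCtrl and 174, 164 and 122 CPM in shANG8, also without overlap (0.48, SE 0.20, adjusted p = 0.559). These were the 2 genes whose shANG8 libraries all lay above the controls, as did 6.16% of all tested genes, and 0 had them all below, against 6.78%. Per2 stood at 36.6, 36.5 and 58.6 CPM in shCtrl and 30.6, 87.3 and 61.6 CPM in shANG8 (0.45, SE 0.30, adjusted p = 0.769). Per3 stood at 21.4, 26.6 and 40.6 CPM against 31.8, 65.3 and 30.4 CPM (0.52, SE 0.31, adjusted p = 0.714). For both genes the groups overlapped, and shANG8 replicate 2 was the highest library. Without it the differences of Per2 and Per3 were 0.070 and 0.072. Ciart was similar, at 9.70, 23.8 and 40.5 CPM against 25.9, 55.3 and 34.0 CPM (0.64, SE 0.47, adjusted p = 0.810). The Ciart difference was 0.25 without shCtrl replicate 1, 0.28 without shANG8 replicate 2 and 1.19 without shCtrl replicate 3. Cry1 stood at 3.01 to 7.90 CPM against 7.35 to 8.79 CPM (0.66, SE 0.32, adjusted p = 0.647). Arntl overlapped, at 2.85, 2.19 and 1.37 CPM in shCtrl and 2.12, 1.81 and 2.04 CPM in shANG8 (-0.10, SE 0.42, adjusted p = 0.981). Nr1d1 (0.09, SE 0.52, adjusted p = 0.987) and Nr1d2 (0.14, SE 0.17, adjusted p = 0.906) overlapped as well.

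The difference between the overexpression and the knockdown effect was tested as an interaction. It was called for Dbp (-1.39, SE 0.28, adjusted p = 0.00888) and Per3 (-1.63, SE 0.44, adjusted p = 0.0399), both lower, where 6.62% of all tested genes were called (3.72% higher and 2.9% lower). The call of Dbp held in all 19 alternatives (highest adjusted p 0.0265). That of Per3 was lost without Ad_GFP replicate 1 (adjusted p = 0.0764) or 2 (0.0960), ANG8 replicate 1 (0.0984) or 3 (0.0872), shCtrl replicate 1 (0.0929) or 2 (0.0959) or shANG8 replicate 2 (0.0603). Per2 lay just outside (-1.50, SE 0.43, adjusted p = 0.0514). It passed in DESeq2 (0.0104), without the filter on low counts (1.7e-05) and in the fit with a replicate block (0.0160). Dropping shCtrl replicate 3 (0.0315) or shANG8 replicate 1 (0.00586) also brought it past the threshold. Arntl did not pass (1.59, SE 0.60, adjusted p = 0.124), nor did Per1 (-1.30, SE 0.50, adjusted p = 0.142), Nr1d2 (-0.60, SE 0.24, adjusted p = 0.157), Ciart (-1.45, SE 0.67, adjusted p = 0.241), Cry1 (-0.76, SE 0.45, adjusted p = 0.350) or Nr1d1 (-0.36, SE 0.74, adjusted p = 0.837).

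The control viruses were compared because each is the baseline of 1 arm, and this comparison shares libraries with both. EdgeR called 0 of the 9 clock genes and 0% of all genes. At an unadjusted p under 0.05 there were 2 of the 9 (Arntl and Per3) and 8.76% of all tested genes. DESeq2 called 46 genes and voom 0, none of them a clock gene. Arntl lay higher in every shCtrl library (1.37 to 2.85 CPM) than in every Ad_GFP library (0.633 to 1.18 CPM; 1.18, SE 0.44, adjusted p = 0.450), where 7.66% of all tested genes did so. None lay lower in every shCtrl library, against 8.45% of all tested genes. Its shCtrl range took in 2 of the 3 ANG8 libraries. Per3 was at 21.4 to 40.6 CPM in shCtrl and 39.7 to 62.8 CPM in Ad_GFP (-0.76, SE 0.31, adjusted p = 0.507). Nr1d1 was at 41.3 to 75.9 CPM in shCtrl and 19.5 to 58.1 CPM in Ad_GFP (0.78, SE 0.52, adjusted p = 0.685). Dbp differed little from 1 control to the other (-0.14, SE 0.20, adjusted p = 0.867). Angptl8 itself lay higher in every shCtrl library (167 to 391 CPM) than in every Ad_GFP library (80.4 to 96.8 CPM). The difference did not pass (1.75, SE 0.33, edgeR adjusted p = 0.338). The shCtrl mean of Angptl8 was 299 CPM, above the ANG8 mean of 217 CPM, so the arms started from unlike levels of the targeted gene.

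To set the phase-opposed genes against each other, the mean log2 CPM of Dbp, Nr1d1 and Per3 was subtracted from that of Arntl and Npas2 in each library. This contrast is a description, with no test, and what moves it (collection hour, phase, amplitude of the rhythm or another cause) was not tested. It was -7.23, -6.60 and -6.19 in Ad_GFP and -4.52, -4.89 and -5.31 in ANG8, so that the groups did not overlap and their means differed by 1.77. In shCtrl it was -5.46, -5.60 and -6.08 and in shANG8 -6.20, -6.23 and -5.89, a difference of -0.39 with overlapping libraries. The shCtrl mean (-5.71 ± 0.33, SD, n = 3) lay between those of Ad_GFP (-6.67 ± 0.52) and ANG8 (-4.91 ± 0.40), 0.96 above Ad_GFP. The mean log2 CPM of Dbp, Nr1d1 and Per3 was 5.82 in Ad_GFP and 5.83 in shCtrl. That of Arntl and Npas2 was -0.85 in Ad_GFP and 0.11 in shCtrl. Between the controls the contrast thus differed through the genes with few reads, and the means of the sides did not move in opposite directions. The steady mean of Dbp, Nr1d1 and Per3 held genes that differed in direction. From Ad_GFP to shCtrl the log2 fold change was -0.76 for Per3, 0.78 for Nr1d1 and -0.14 for Dbp, and none passed. Arntl, at 1.18, thus lay opposite to Per3 but not to Nr1d1. With Arntl alone in place of both activators, a choice made after the low counts of Npas2 were seen, the 3 differences were 2.09, -0.35 and 1.05.

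As means, both sides separated ANG8 from Ad_GFP, but not every single gene did. The mean log2 CPM of Dbp, Nr1d1 and Per3 was 5.52 to 6.25 in Ad_GFP and 4.83 to 5.31 in ANG8, without overlap. That of Arntl and Npas2 was -0.98 to -0.67 in Ad_GFP and -0.49 to 0.79 in ANG8, also without overlap. Between these groups the means of the sides thus differed in opposite directions. Of the individual genes, Arntl was higher and Dbp and Per3 were lower, but the libraries overlapped for Nr1d1 and for Npas2. Among the libraries of a single group the sides did not always oppose each other. In Ad_GFP, replicate 1 had the lowest mean of Arntl and Npas2 and the highest mean of Dbp, Nr1d1 and Per3, although its Npas2 was not the lowest and its Per3 not the highest of the group. In ANG8, replicate 1 had the highest and replicate 3 the lowest mean on both sides, and in shANG8, replicate 2 had the highest and replicate 3 the lowest on both.

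**Figure D3:**
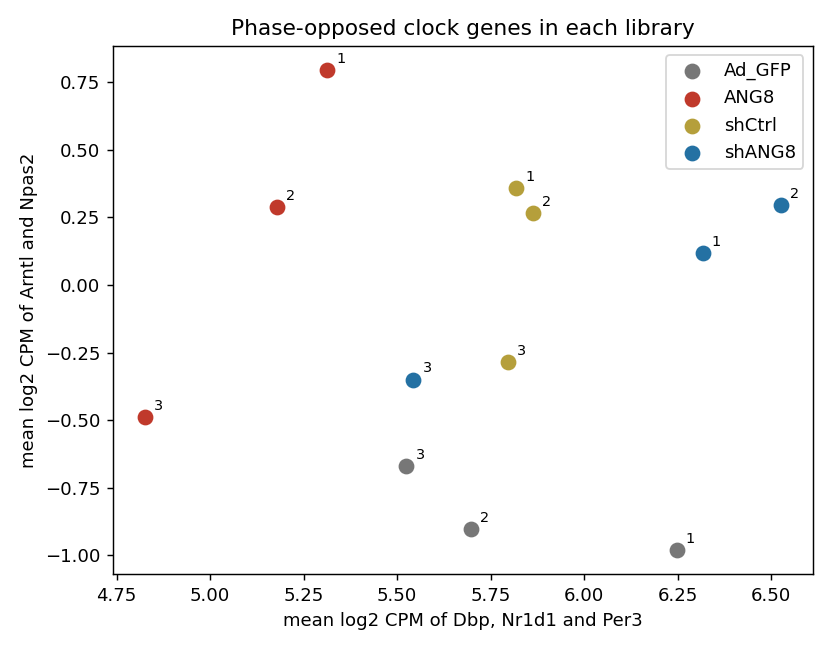
Mean log2 CPM of Arntl and Npas2 (vertical axis) against that of Dbp, Nr1d1 and Per3 (horizontal axis), with 1 point per library, coloured by group and numbered by replicate. ANG8 libraries lie to the left of Ad_GFP libraries (4.83 to 5.31 against 5.52 to 6.25) and above them, while shCtrl and shANG8 libraries overlap.

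The spread within groups differed between the clock genes. The median within-group SD of log2 CPM was 0.443 for the 9 tested clock genes and 0.326 for all 14686 tested genes. It was largest for Nr1d1 (0.708), Ciart (0.660), Per1 (0.510), Per2 (0.459) and Per3 (0.443). Of the tested genes within 0.5 log2 CPM of each one's own level, 98.8% had a smaller SD than Nr1d1, 99.0% than Ciart, 96.4% than Per1, 94.9% than Per2 and 94.5% than Per3. Dbp (0.259), Cry1 (0.414) and Nr1d2 (0.198) ranked lower, at 63.9%, 67.9% and 39.0%, and Arntl (0.359) at 10.03% among genes of equally few reads.

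Some of these deviations were shared between clock genes, and other sets of genes were not compared. In 3 of the 4 groups 1 library was highest for all of Per1, Per2, Per3 and Ciart: replicate 2 in Ad_GFP, replicate 3 in shCtrl and replicate 2 in shANG8. The first 2 of these were also lowest for Nr1d1 in their group. Conversely, replicate 1 was highest for Nr1d1 in every group. That library was lowest for Ciart in 3 of the 4 groups, for Per2 in 3 and for Per1 in 2. Other libraries went the other way. In ANG8, replicate 1 was highest for Per1 and Ciart as well as for Nr1d1. In shANG8, replicate 2 held 72.5 CPM of Nr1d1, against 26.9 CPM in replicate 3. The ratio of Nr1d1 to Per1 counts ran from 0.255 to 1.81 within Ad_GFP, from 0.461 to 0.861 within ANG8, from 0.973 to 3.81 within shCtrl and from 0.476 to 1.599 within shANG8. These patterns were chosen after the values were seen and are given as descriptions.

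**Figure D4:**
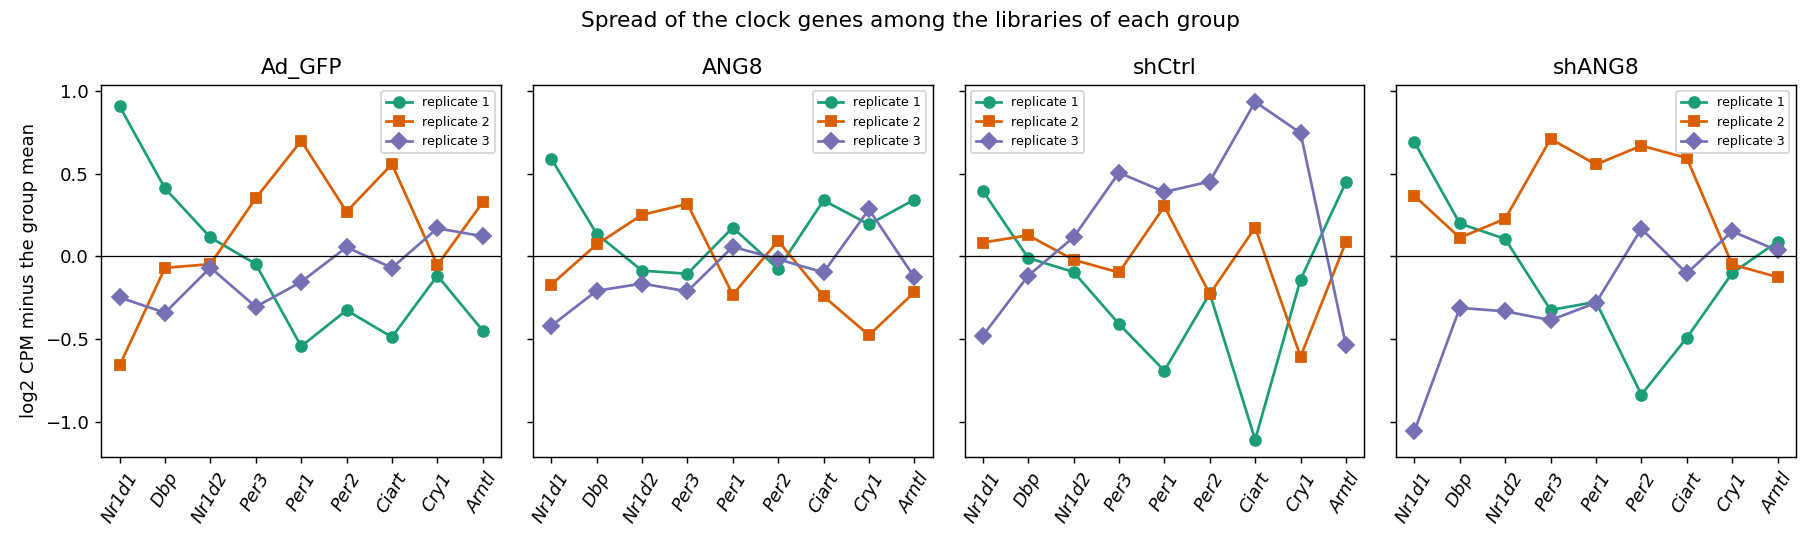
Deviation of each library from its group mean in log2 CPM (vertical axis) for 9 clock genes, with 1 panel per group and 1 line per library. From left to right the genes are Nr1d1, Dbp, Nr1d2, Per3, Per1, Per2, Ciart, Cry1 and Arntl. Replicate 1 is highest for Nr1d1 in every panel, and 1 library is highest for all of Per1, Per2, Per3 and Ciart in 3 of the 4 panels.

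Other genes of the loop were read as a list of 9 outside the members, 8 of which were tested. Under overexpression 3 of these fell, 0 rose and 5 did not pass (median -0.74), where 6.39% of all tested genes were called lower and 7.08% higher. Tef and Hlf, the PAR-bZIP relatives of Dbp, both fell. Tef stood at 260 to 364 CPM in Ad_GFP and 133 to 184 CPM in ANG8 (-0.91, SE 0.21, adjusted p = 0.0101), without overlap. Hlf stood at 54.4 to 72.4 CPM and 30.03 to 45.4 CPM (-0.76, SE 0.20, adjusted p = 0.0167). Cry2, the second cryptochrome, fell from 32.6 to 44.7 CPM in Ad_GFP to 19.4 to 25.8 CPM in ANG8 (-0.76, SE 0.19, adjusted p = 0.0150). Clock, the partner of BMAL1, stood at 16.9 to 18.7 CPM and 18.9 to 22.05 CPM (0.21, SE 0.17, adjusted p = 0.467). Nfil3, a D-box repressor that opposes Dbp, did not pass either (-0.72, SE 0.31, adjusted p = 0.136). Under knockdown edgeR called 0 of the 8, as did DESeq2 and voom, with 0 at an unadjusted p under 0.05 (median 0.31). Of all tested genes, edgeR called 0.191% there, and 7.93% had an unadjusted p under 0.05. The difference of the effects, called lower for 2.9% and in all for 6.62% of tested genes, was called for the same 3 genes, Tef (-1.33, SE 0.30, adjusted p = 0.0164), Hlf (-1.14, SE 0.28, adjusted p = 0.0215) and Cry2 (-1.15, SE 0.27, adjusted p = 0.0182).

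**Figure D5:**
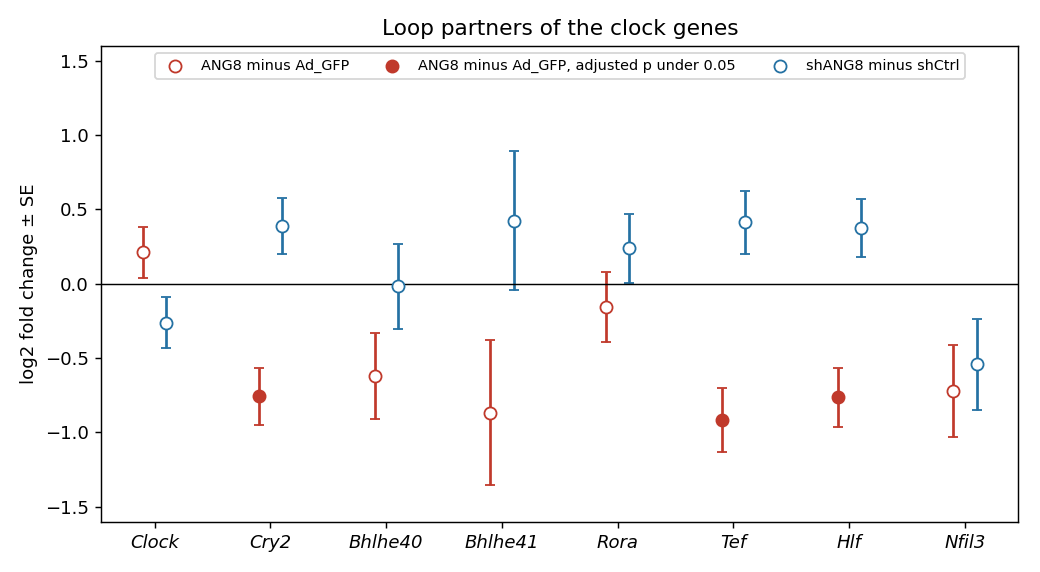
Log2 fold change with SE (vertical axis) of 8 loop partners in ANG8 minus Ad_GFP and shANG8 minus shCtrl. Filled points passed an adjusted p of 0.05: Cry2 (-0.76), Tef (-0.91) and Hlf (-0.76), all under overexpression.

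Of 14 kinases, phosphatases, ubiquitin ligases and other modifiers of clock proteins, 1 fell under overexpression and 13 did not pass (median 0.08), a share near the 6.39% of all tested genes that were called lower. The one was Fbxl21, a ubiquitin ligase subunit for cryptochromes, from 5.03 to 7.02 CPM in Ad_GFP to 2.21 to 2.75 CPM in ANG8 (-1.21, SE 0.33, adjusted p = 0.0215). Of 17 liver genes known as clock outputs, 2 fell and 15 did not pass (median -0.21). Over all tested genes 13.5% were called (6.39% lower), so this count is near the background. Rgs16, a regulator of G protein signalling, stood at 95.4 to 228 CPM in Ad_GFP and 12.98 to 42.9 CPM in ANG8 (-2.22, SE 0.53, adjusted p = 0.0213). Lpin1, a phosphatidate phosphatase of fat synthesis, stood at 170 to 420 CPM and 50.8 to 57.9 CPM (-2.43, SE 0.65, adjusted p = 0.0397). Its shCtrl libraries spread from 68.1 to 358 CPM. Under knockdown edgeR, DESeq2 and voom each called 0 genes of both lists, with 1 and 0 at an unadjusted p under 0.05. Of all tested genes, edgeR called 0.191% there, and 7.93% had an unadjusted p under 0.05.

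The genes most like Arntl and Dbp were taken as those with the highest Pearson r of log2 CPM over the 12 libraries, among 10923 genes. They share libraries and scaling, so r is a description. For Dbp they were Col18a1 (0.965), Tprkb (0.964) and Zfp771 (0.964). Col18a1, which encodes a collagen of basement membranes, averaged 739 CPM in Ad_GFP and 374 CPM in ANG8, and 779 CPM in shCtrl and 992 CPM in shANG8. For Arntl they were Ankfy1 (0.872), Tmem109 (0.849) and Bcl7b (0.822).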

How the data were processed

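Liver RNA of 12 libraries was sequenced. Per the labels' protocols, Trizol-extracted RNA went into a NEBNext Ultra library kit. The deposited values are unnormalized read counts per gene, as whole numbers. The tools CASAVA (1.8.2) and featureCounts (1.5.0-p3), and the build mm9, stand in the submitters' processing notes. The sources used here give no aligner, strand setting or annotation release. All 10 clock genes have the same coordinates in GENCODE vM21 (GRCm38), as do 98.3% of the gene identifiers found there, so positions are GRCm38.

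Tests used edgeR 4.0.16 in R 4.3.3: filterByExpr, TMM scaling and a robust quasi-likelihood fit of all 12 libraries, with Benjamini-Hochberg adjustment over all 14686 tested genes and calls at an adjusted p under 0.05. The SE is the log2 fold change over the square root of F. Log2 CPM used a prior count of 2. DESeq2 1.42.0, voom (limma 3.58.1), other scalings and filters, covariates and left-out libraries were alternatives. The script was tested on simulated data. Libraries of 1 group differed by more than counting noise (chi-square per gene 13.5 to 135). Named genes were the 10 members, called genes of the lists (up to 5 each), the fixed partners Clock, Cry2, Tef and Nfil3 and the 3 genes most like Arntl and Dbp. The members and lists were chosen with earlier results of these data known. One list gene is not reported here and was left out of its list's counts.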

Additional observations from a re-analysis of the deposited data

Results flagged for a closer look

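Among the clock genes, the overexpression effect differed from the knockdown effect, by the interaction test, for Dbp and Per3. For Dbp the difference was -1.39 on the log2 scale (SE 0.28, edgeR adjusted p = 0.00888): all 3 ANG8 libraries lay below Ad_GFP and all 3 shANG8 libraries above shCtrl. For Per3 it was -1.63 (SE 0.44, adjusted p = 0.0399), with overlapping libraries in the knockdown arm. Groups of 3 are too small for the search for single outlying libraries.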

How the results depend on the processing

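Over the alternatives, 503 of 549 values of single clock genes kept their direction and their side of the threshold, 24 lost a call, 8 gained one and 14 changed sign. Leaving out 1 library turned these uncalled values. Under overexpression Per1 ran from -0.47 to 0.20 (positive without Ad_GFP replicate 2), Cry1 from -0.27 to 0.11 (without ANG8 replicate 2) and Nr1d1 from -0.63 to 0.33 (without Ad_GFP replicate 1). Under knockdown Arntl ran from -0.34 to 0.16 (positive without shCtrl replicate 1), and Nr1d1 from -0.28 to 0.46, with -0.12 without shCtrl replicate 3, -0.28 without shANG8 replicate 1 and -0.017 without shANG8 replicate 2. The difference of effects of Nr1d1 ran from -0.73 to 0.24 (without Ad_GFP replicate 1), with 0.010 without shANG8 replicate 1. Between the controls Cry1 ran from -0.69 to 0.069 (without shCtrl replicate 2), Ciart from -0.89 to 0.037 (without shCtrl replicate 1) and Dbp from -0.29 to 0.10 (without Ad_GFP replicate 1). Cry1 under overexpression was 0.022 with a covariate for the mitochondrial share, and Nr1d1 under knockdown was -0.038 with voom. The cause was not tested.

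Under overexpression 4 clock genes were called, 2 with a covariate for the mitochondrial share and 1 to 3 when 1 library was left out. All genes called numbered 1978, and 995 to 1684 when 1 library was left out (995 without ANG8 replicate 1, 1307 without ANG8 replicate 2, 1080 without Ad_GFP replicate 1 and 1133 without Ad_GFP replicate 2). Under knockdown 28 genes were called, and 102 with DESeq2, 132 without the filter on low counts (1 clock gene), 47 with the mitochondrial covariate and 21 to 39 without 1 library. The difference of effects was called for 972 genes, 1541 with DESeq2, 1510 without the filter (4 clock genes), and 473 to 1227 without 1 library (1 to 3 clock genes, 2 in the full data). It fell to 592 and 623 without Ad_GFP replicates 1 and 2, 473 without ANG8 replicate 1, and 487 and 578 without shCtrl replicates 1 and 2. Between the controls 0 genes were called by edgeR, 46 by DESeq2, 96 without the filter and 0 to 10 without 1 library (10 without Ad_GFP replicate 1, 1 without shCtrl replicate 3). The phase contrast of ANG8 minus Ad_GFP ran from 1.49 to 2.01 without 1 library.

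With the replicate number as a block, 2600 genes were called under overexpression (5 clock genes, Nr1d2 added at an adjusted p of 0.0492), 55 under knockdown, 1550 for the difference and 5 between the controls. Nothing in the labels says that the numbers pair libraries. Deviations of same-numbered libraries correlated at -0.0667, 0.116 and 0.149 in the overexpression arm and at 0.0345, 0.0824 and 0.186 in the knockdown arm. Those of differently numbered libraries ran from -0.205 to 0.114 and from -0.127 to 0.0655 in these arms. The highest correlation of each arm was thus of a same-numbered pair, and whether libraries were paired was not tested. Arntl, at 10 to 46 counts per library, and Npas2, at 1 to 10, are limited by depth.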

Other observations

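Besides Per1, 8 genes that follow body temperature or glucocorticoid rhythms were read. EdgeR, DESeq2 and voom each called 0 of them under overexpression and 0 under knockdown. Over all tested genes edgeR called 13.5% and 0.191%. In each comparison 2 of the 8 had an unadjusted edgeR p under 0.05, as did 27.7% and 7.93% of all tested genes. The median log2 fold changes of the 8 genes were 0.24 and -0.09. Cirbp, the gene of a cold-inducible RNA-binding protein, is named because its difference of effects was called, a choice made after its values were seen. It had -0.62 under overexpression (edgeR adjusted p = 0.0966) and 0.57 under knockdown (adjusted p = 0.564), a difference of -1.20 (adjusted p = 0.0436). Cirbp was the 1 gene of the 8 with a called difference, where 6.62% of all tested genes were called. Rbm3, the other cold-inducible RNA-binding protein gene of the list, had 0.44 under overexpression (adjusted p = 0.115) and 0.016 under knockdown (adjusted p = 0.994), and its difference of 0.43 was not called (adjusted p = 0.353).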
